A study of Mus musculus with 32 samples.

Results

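The extracellular matrix genes and their receptors were followed in mouse embryonic stem cells that were released from self-renewal. The set comprised every gene whose symbol names a collagen, laminin or integrin chain, together with Fn1, Nid1, Nid2, Hspg2, Sparc and Agrn, that had at least 30 counts over 31 libraries. This gave 62 genes of the 31053 in the count tables, out of 81 whose symbols matched. They were 9 fibrillar collagen chains, 5 type IV collagen chains, 16 other collagen chains, 9 laminin chains, 6 matrix glycoproteins and proteoglycans, 11 integrin alpha chains and 6 integrin beta chains. The genes nearest the count minimum were Col4a6 and Col6a2 with 33 counts each and Itgb3 with 35. The nearest genes outside it were Col17a1 with 27, Itga8 with 26 and Col3a1 and Lamb3 with 23 each.

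The cells were the E14 line, derived from a mouse blastocyst and grown on plates coated with 0.2% gelatin, a denatured collagen. Before release they were kept in N2B27, a serum-free medium, with 2i, the inhibitor pair CHIR99021 at 3 uM (which blocks GSK3) and PD0325901 at 1 uM (which blocks MEK), or with 2iL, the same pair plus the cytokine LIF. Cells were plated sparsely as single cells, moved to N2B27 alone the next day, and collected for 3' digital counting of poly(A) RNA at 0, 24, 36, 48, 60, 72, 84 and 96 h (2iL course) or at 0, 12, 24, 36, 48, 60, 72 and 84 h (2i course), with 2 libraries at each of the 16 points. All groups are of a single cell line, and the labels do not say whether replicates came from separate cultures, so p-values measure the spread between these libraries. Total counts ran from 1122648 to 3438514 per library (median 1980949), leaving aside library 2 of 2iL 36 h, which had 7298 counts and was left out of the model. Partner libraries correlated across genes (log2 CPM) at 0.946 at 2iL 96 h, 0.946 at 2i 12 h, 0.948 at 2iL 84 h and 0.95 at 2iL 24 h and at 0.964 to 0.981 in the other pairs. Earlier work on these data had found 4 libraries to stand apart from their partners (library 1 of 2iL 48 h, library 2 of 2iL 84 h, library 1 of 2iL 96 h and library 2 of 2i 12 h), and calls lost without them are named as such. Of the 62 genes, 44 had enough counts to be tested, and the 18 others stayed at or below 4.9 CPM (counts scaled to the size of the library) in every library. The untested genes were Col5a2, Col5a3, Col11a2, Col4a4, Col4a5, Col4a6, Col6a2, Col6a4, Col6a5, Col16a1, Col19a1, Lama2, Lama4, Itga2, Itga5, Itga7, Itga10 and Itgb3. Because 2iL 36 h then had 1 library, a gene could enter the test through a single library, so the tested genes include ones that were high in few libraries, and their calls are read only against those of all genes tested. As a check of the cell type, 8 pluripotent cell markers summed to between 1452 and 1674 CPM at 2iL 0 h and between 1990 and 2016 at 2i 0 h, and to between 1021 and 1056 at 2iL 96 h and between 773.5 and 779.3 at 2i 84 h. In 2iL the sum first rose, to between 2245 and 2569 at 48 h. These markers did not move together. Lin28a went from 69.5 and 84.6 at 2iL 0 h to 338 and 350 at 96 h, and from 94.5 and 125 at 2i 0 h to 309 and 309 at 84 h. Nanog went from 177 and 208 to 10.4 and 24.1 in 2iL, and from 176 and 171 to 9.47 and 7.51 in 2i. Of 9 tested early neural markers, 8 were higher than at 0 h at 2iL 96 h and 8 at 2i 84 h, but not the same 8. Over all genes tested, 19.5% and 16.6% were higher at these times. Pax3 measured 0.649 and 1.17 CPM at 2iL 96 h against 2.5 and 2.21 at 0 h. Tubb3 measured 43.6 and 34.9 at 2i 84 h against 54.4 and 76.4 at 0 h.

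A basement membrane is built from a few partners. Laminin, a trimer of an alpha, a beta and a gamma chain, forms one network and type IV collagen, a trimer made mostly of the Col4a1 and Col4a2 chains, forms another. Nidogens (Nid1, Nid2), perlecan (Hspg2) and agrin (Agrn) link them, and cells hold on through integrins, pairs of an alpha and a beta chain. In the early mouse embryo such a membrane underlies the epiblast and the primitive endoderm. The parietal derivatives of the primitive endoderm secrete a membrane of this kind too. Fibronectin (Fn1) and Sparc, a protein that binds collagen, lie in the matrix around such membranes.

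The promoters of 4 genes are shown because their genes carry the main patterns described here: the head-to-head pair Col4a1 and Col4a2, which rose in both courses, Lamb1, which fell and then rose, and Nid1, which differed most between the courses by adjusted p. Each is 300 bases on GRCm38.p6 (RefSeq), from 250 bases before to 50 bases after an annotated start, 5′ to 3′ on the gene's own strand. Capitals mark every CCAAT box (CCAAT) and GC box (GGGCGG) on either strand; no marked matches overlap.
Col4a1, chr8:11312777-11313076, minus strand: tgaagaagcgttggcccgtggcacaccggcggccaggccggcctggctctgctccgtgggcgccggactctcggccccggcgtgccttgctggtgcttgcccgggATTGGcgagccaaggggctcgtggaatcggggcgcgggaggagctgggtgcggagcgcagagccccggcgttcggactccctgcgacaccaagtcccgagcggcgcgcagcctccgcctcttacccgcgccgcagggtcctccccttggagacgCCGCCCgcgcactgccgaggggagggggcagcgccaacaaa
Col4a2, chr8:11312555-11312854, plus strand: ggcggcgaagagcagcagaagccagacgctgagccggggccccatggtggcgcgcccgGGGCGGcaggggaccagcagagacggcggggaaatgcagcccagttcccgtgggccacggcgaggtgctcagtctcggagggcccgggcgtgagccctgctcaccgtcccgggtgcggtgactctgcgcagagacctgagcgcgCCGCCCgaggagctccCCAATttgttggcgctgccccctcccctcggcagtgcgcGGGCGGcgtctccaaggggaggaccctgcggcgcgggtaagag
Lamb1, chr12:31265043-31265342, plus strand: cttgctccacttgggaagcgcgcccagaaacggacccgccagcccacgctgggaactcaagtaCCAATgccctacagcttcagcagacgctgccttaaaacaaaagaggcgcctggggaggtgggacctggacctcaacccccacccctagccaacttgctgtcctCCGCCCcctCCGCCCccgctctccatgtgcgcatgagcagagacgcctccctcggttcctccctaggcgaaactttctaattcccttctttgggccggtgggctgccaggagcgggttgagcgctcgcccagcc
Nid1, chr13:13437352-13437651, plus strand: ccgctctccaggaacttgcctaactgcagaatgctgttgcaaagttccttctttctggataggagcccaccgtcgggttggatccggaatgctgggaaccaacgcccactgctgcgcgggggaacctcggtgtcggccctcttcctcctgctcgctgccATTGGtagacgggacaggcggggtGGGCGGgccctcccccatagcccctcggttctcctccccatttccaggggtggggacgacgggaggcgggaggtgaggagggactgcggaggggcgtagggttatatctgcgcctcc
The annotated starts of Col4a1 and Col4a2, on opposite strands, lie 21 bases apart, with the first bases of the genes overlapping, and the 2 windows share 78 bases, so the box in capitals near the end of the Col4a1 line is the last one of the Col4a2 line read on the other strand. Promoter sequence was found for 45 of the 62 genes, as 50 windows. The GC box was in 36 of these 50 windows (72%) against 35.66% of all 32851 promoters of the same length. The CCAAT box was in 16 of 50 (32%) against 37.41%, and the sequence TATAAA was in 2 of 50 (4%) against 13.62%. The 32851 promoters were not filtered by counts in these libraries, whereas the genes of the set had at least 30 counts. The 2 sets are therefore unlike, and the shares are descriptions of the letters in the windows.

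Before withdrawal, some basement membrane genes differed between the media and others, among them Nid2, Agrn, Lama5, Col4a1 and Col4a2, did not pass the test. At 0 h, 3 of the 44 tested genes were higher in 2i than in 2iL, where 3.75% of all genes tested were, and 7 were lower, where 4.24% of all genes were. Levels are in CPM scaled by library, and changes and differences are log2 fold changes with their standard error (SE). A call is an adjusted p under 0.05 in edgeR's quasi-likelihood test with Benjamini-Hochberg adjustment over all 12556 genes. Of these 10 calls, 6 passed in every alternative tried: Nid1, Lama1 and Lamc1 were lower in 2i and Lamb1, Col18a1 and Itga1 were higher. The count of lower genes was 4 without library 1 of 2iL 0 h and 4 without library 2 of 2i 0 h.

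Gene positions are on GRCm38, from the GENCODE annotation. Nid1 (chr13:13437551-13512269), the nidogen that binds the laminin gamma 1 chain, measured 111 and 103 CPM in the 2iL libraries and 25.8 and 19.8 in the 2i libraries, a log2 difference of -2.21 ± 0.23 (SE, adjusted p = 3.52e-08). Its laminin partner Lamc1 (chr1:153218922-153332786) measured 106 and 115 in 2iL and 42.5 and 34.6 in 2i, a difference of -1.51 ± 0.24 (SE, adjusted p = 5.14e-05). Lama1 (chr17:67697259-67822647), the alpha chain of the laminin typical of early embryonic membranes, measured 46.2 and 40.3 in 2iL and 8.74 and 9.34 in 2i, a difference of -2.26 ± 0.41 (SE, adjusted p = 0.00029). For Nid1, Lamc1 and Lama1 the 2iL libraries were the higher ones, which their calls already imply. The beta chain of the same trimer went the other way: Lamb1 (chr12:31265234-31329644) measured 34.1 and 32.8 in 2iL and 64.3 and 76.4 in 2i, a difference of 1.07 ± 0.20 (SE, adjusted p = 0.000519). Col18a1 (chr10:77052178-77166548), a basement membrane collagen from which endostatin is cut, measured 36.2 and 38.1 in 2iL and 151 and 160.4 in 2i, a difference of 2.06 ± 0.18 (SE, adjusted p = 7.47e-10). Itga1 (chr13:114953096-115101964), an integrin chain that binds collagen, measured 2.91 and 1.33 in 2iL and 16.7 and 21.4 in 2i, a difference of 3.10 ± 0.46 (SE, adjusted p = 1.97e-05), or 3.76 without library 1 of 2iL 0 h. For Lamb1, Col18a1 and Itga1 the 2i libraries were the higher ones.

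The other calls at 0 h were lost when 1 library was left out. Sparc measured 609.9 and 669.7 CPM in 2iL and 313 and 407 in 2i (log2 fold change -0.83 ± 0.19, adjusted p = 0.00296), with an adjusted p of 0.128 without library 1 of 2i 0 h. Hspg2, the perlecan core protein, measured 34.6 and 24.8 in 2iL and 9.53 and 7.14 in 2i (log2 fold change -1.80 ± 0.42, adjusted p = 0.0043), with an adjusted p of 0.0861 without library 1 of 2iL 0 h and 0.0669 without library 2 of 2i 0 h. The laminin chain Lamb2 (-1.05, adjusted p = 0.0229) lost the call more readily. The adjusted p of Lamb2 was 0.0581 to 0.188 leaving out any 1 of the 4 libraries, 0.0653 with no filter on low counts, 0.13 with DESeq2 and 0.0997 without the 4 libraries highest in cartilage genes (described below with the cartilage collagens). Vimentin (Vim), an intermediate filament of mesenchymal and many cultured cells, was also lower in 2i (log2 fold change -1.52 ± 0.18, adjusted p = 6.93e-07), and the 12 other fibroblast and mesenchymal markers summed to between 3.543 and 5.412 CPM in 2iL and between 2.383 and 3.846 in 2i. In bulk RNA, fewer cells of a type and less RNA per cell cannot be told apart.

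**Figure D1:**
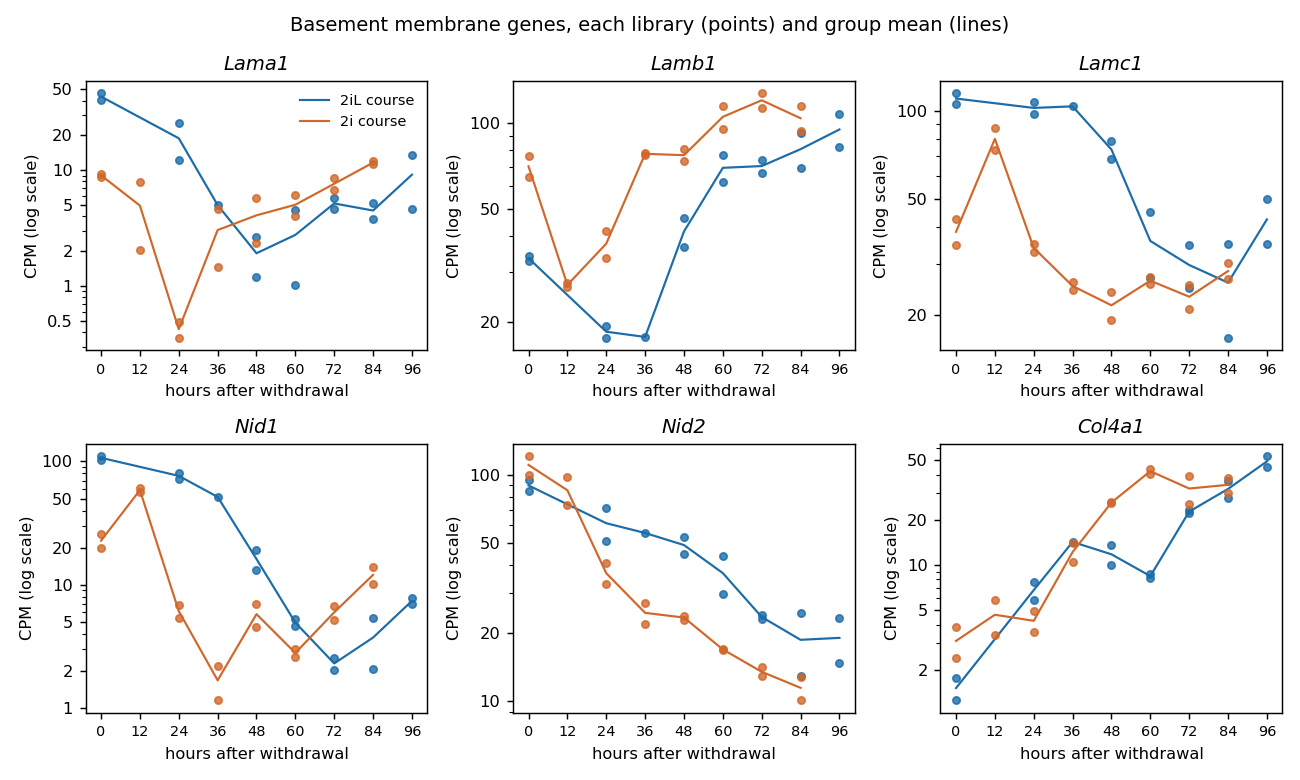
Levels of 6 basement membrane genes in CPM (log scale) against hours after withdrawal, in the 2iL course (blue) and the 2i course (orange). Points are libraries and lines join group means; 2iL 36 h has 1 library and the 2iL course has no 12 h point. Nid1 and Lamc1 start higher in the 2iL course and fall, Lamb1 dips and then rises in both, and Col4a1 rises in both.

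Across withdrawal, 32 of the 44 tested genes changed at some time of the 2i course, where 52.3% of all genes tested did, and 31 changed in the 2iL course, where 56.5% did. These joint tests compare all 7 withdrawal times with 0 h; 25 of the 32 and 24 of the 31 calls passed in every alternative tried. Changes in both courses were called for 26 genes, where 41.3% of all genes were. Of the 44, 7 were called in neither course, where 32.5% of all genes were: Col13a1, Col26a1, Col8a1, Col9a2, Col9a3, Itga4 and Itgb4. All 6 matrix glycoproteins and proteoglycans passed in both courses, as did both tested type IV chains, with an adjusted p for Hspg2 in 2i of 0.0644 without library 1 of 2i 84 h.

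Both nidogens fell. In the 2iL course Nid1 measured 111 and 103 at 0 h, 72.7 and 80.1 at 24 h, 51.5 at 36 h and 19.1 and 13.2 at 48 h. Nid1 then measured 5.26 and 4.62 at 60 h, 2.04 and 2.57 at 72 h, 2.08 and 5.39 at 84 h and 7.79 and 7 at 96 h (CPM). Every later library was below both 0 h libraries, and the mean was lowest at 72 h, where the change was -5.52 ± 0.32 (SE, adjusted p = 2.62e-14). Both 96 h libraries were above both 72 h libraries. In the 2i course Nid1 measured 25.8 and 19.8 at 0 h, 56.3 and 60.8 at 12 h, 6.86 and 5.37 at 24 h and 1.15 and 2.21 at 36 h. Nid1 then measured 4.52 and 7.04 at 48 h, 2.6 and 3 at 60 h, 6.75 and 5.21 at 72 h and 13.9 and 10.2 at 84 h. There it first rose to 12 h, by 1.34 ± 0.25 (SE, adjusted p = 0.000365), fell below its start by 24 h (log2 fold change -1.92 ± 0.30, adjusted p = 1.96e-05) and had its lowest mean at 36 h (log2 fold change -3.78 ± 0.43, adjusted p = 8.86e-08). The 12 h call had an adjusted p of 0.0587 without the 4 libraries highest in cartilage genes. Nid2 (chr14:19751265-19811787), the second nidogen, fell from 94.5 and 85 at 2iL 0 h to 24.1 and 23.1 at 72 h (log2 fold change -1.92 ± 0.25, adjusted p = 2.63e-07). Its 2i libraries went from 121 and 100 at 0 h to 40.7 and 32.9 at 24 h (log2 fold change -1.60 ± 0.23, adjusted p = 5.46e-06) and 10.1 and 12.9 at 84 h (log2 fold change -3.25 ± 0.28, adjusted p = 1.29e-10). No library at these later times reached the 0 h level. The 3' end of Nid2 is overlapped on the other strand by Rtraf, and whether the counting used strand is not given in the sources used here.

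Laminin chains did not move as a unit. Lamc1, the gamma chain shared by most laminins, measured 106 and 115 at 0 h, 108 and 97.6 at 24 h, 104 at 36 h and 79.1 and 68.6 at 48 h in the 2iL course. Lamc1 then measured 45.1 and 26.7 at 60 h, 34.7 and 24.6 at 72 h, 34.9 and 16.7 at 84 h and 50 and 35 at 96 h. The change at 72 h was -1.88 ± 0.25 (SE, adjusted p = 4.04e-07). It was called lower at 60, 72, 84 and 96 h, and the libraries at 24 and 36 h lay between 97.6 and 108. In the 2i course it started lower, at 42.5 and 34.6, measured 73.4 and 87.2 at 12 h (log2 fold change 1.04 ± 0.25, adjusted p = 0.0062) and was between 19.2 and 35.1 from 24 h on. The 12 h call had an adjusted p of 0.234 without the 4 libraries highest in cartilage genes, 0.0788 without library 2 of 2i 0 h and 0.0674 without library 2 of 2i 12 h. Lamb1, the beta chain, measured 34.1 and 32.8 at 0 h, 19.3 and 17.6 at 24 h, 17.7 at 36 h and 36.6 and 46.5 at 48 h in the 2iL course. Lamb1 then measured 77 and 62.1 at 60 h, 74.3 and 66.8 at 72 h, 92.2 and 69.5 at 84 h and 107 and 82.5 at 96 h. Leaving 2i, Lamb1 measured 64.3 and 76.4 at 0 h, 27.4 and 26.5 at 12 h, 41.7 and 33.6 at 24 h and 78.5 and 77.3 at 36 h. Lamb1 then measured 80.8 and 73.2 at 48 h, 115 and 95.1 at 60 h, 127 and 113 at 72 h and 93.4 and 114 at 84 h. It dipped first, at 12 h in 2i (log2 fold change -1.37 ± 0.23, adjusted p = 9.84e-05), and then passed its start in both courses, at 72 h by 1.08 ± 0.20 (SE, adjusted p = 0.000106) in 2iL and by 0.78 ± 0.19 (SE, adjusted p = 0.00231) in 2i. The 2i 72 h call had an adjusted p of 0.051 without library 1 of 2i 0 h. The lower level at 2iL 24 h (-0.85, adjusted p = 0.0283) had one of 0.0623 to 0.171 leaving out any 1 of the 4 libraries, 0.0526 with no filter on low counts, 0.0694 with DESeq2 and 0.0776 with only the libraries compared fitted.

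Lama1 fell in the 2iL course from 46.2 and 40.3 to 12.4 and 25.4 at 24 h, 2.64 and 1.2 at 48 h and 5.71 and 4.62 at 72 h, where the change was -3.04 ± 0.44 (SE, adjusted p = 2.35e-06). In the 2i course it was lowest at 24 h, with 0.49 and 0.358 against 8.74 and 9.34 at 0 h (log2 fold change -4.25 ± 0.82, adjusted p = 0.000315), and had 12 and 11.3 at 84 h. These 24 h libraries held 1 count each, and the ratio of 21.7 between the groups' summed counts has a 95% exact binomial interval of 5.63 to 186, for counting error only. Lama5, the alpha chain of the other laminin of the early embryo, measured 23 and 19.8 at 2i 0 h, 6.18 and 8.82 at 12 h (log2 fold change -1.55 ± 0.37, adjusted p = 0.00502) and 29.9 and 20.5 at 60 h. Its 12 h call had an adjusted p of 0.058 without library 1 of 2i 0 h and 0.11 without library 1 of 2i 12 h. Lamb2, the alternative beta chain, fell in 2iL from 24.6 and 21.3 to 7.73 and 7.81 at 24 h (log2 fold change -1.55 ± 0.36, adjusted p = 0.00359). Taking the 16 group means on the log2(CPM + 1) scale, Lamb1 and Lamc1, whose products are partners in 1 protein, ran against each other (Pearson r = -0.88, -0.89 over the 8 groups of 2iL and -0.82 over the 8 of 2i), whereas Lamc1 and Nid1 ran together (r = 0.90). These values describe 16 points that share the course and the libraries, and carry no test.

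Type IV collagen rose in both courses. Col4a1 (chr8:11198423-11312826) measured 1.25 and 1.77 at 0 h, 7.73 and 5.86 at 24 h, 14.2 at 36 h and 13.5 and 10 at 48 h in the 2iL course. Col4a1 then measured 8.64 and 8.21 at 60 h, 23.3 and 22.1 at 72 h, 28.1 and 36.1 at 84 h and 53.3 and 44.7 at 96 h. In the 2i course it measured 2.38 and 3.85 at 0 h, 3.43 and 5.88 at 12 h, 4.9 and 3.58 at 24 h and 10.4 and 14 at 36 h. Col4a1 then measured 25.8 and 26.3 at 48 h, 43.8 and 40.5 at 60 h, 39.3 and 25.3 at 72 h and 30.3 and 38.1 at 84 h (CPM). Every library from 36 h on was above the 0 h libraries of its course. At 72 h the change was 3.86 ± 0.40 (SE, adjusted p = 4.03e-09) in 2iL and 3.41 ± 0.35 (SE, adjusted p = 5.83e-09) in 2i. The last times gave 4.96 ± 0.37 (SE, adjusted p = 3.20e-12) at 2iL 96 h and 3.48 ± 0.34 (SE, adjusted p = 2.04e-09) at 2i 84 h. The first call in 2iL, at 24 h (log2 fold change 2.15 ± 0.54, adjusted p = 0.0075), had an adjusted p of 0.0816 without library 1 of 2iL 0 h and 0.143 without library 1 of 2iL 24 h. Col4a2 (chr8:11312805-11449287), its trimer partner, measured 0.416 and 0.443 at 2iL 0 h and 7.14 and 8.95 at 96 h (log2 fold change 4.06 ± 0.83, adjusted p = 0.000234). Leaving 2i, Col4a2 measured 0.794 and 1.1 at 0 h, 9.82 and 11.2 at 72 h (log2 fold change 3.41 ± 0.74, adjusted p = 0.000658) and 11.4 and 14.5 at 84 h. At 2iL 0 h Col4a2 had 2 counts over both libraries, and the ratio of 19.3 at 96 h has a counting interval of 4.94 to 166. Over the 16 group means the chains of the head-to-head pair correlated at r = 0.87. The other type IV chains in the set, Col4a4, Col4a5 and Col4a6, were too low to test.

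Markers of the endoderm that lays down such membranes were followed alongside. The 16 primitive and parietal endoderm markers summed to between 7.493 and 8.859 CPM at 2iL 0 h and between 142 and 208.5 at 96 h, and to between 11.91 and 12.64 at 2i 0 h and between 75.09 and 94.71 at 84 h. Of 5 that were tested, 3 rose at 2iL 96 h and 4 at 2i 84 h, where 19.5% and 16.6% of all genes tested did. Those that rose at both times were Lrp2, an endocytic receptor (0.416 and 1.33 CPM at 2iL 0 h and 196 and 124 at 96 h), the adaptor Dab2 (2.5 and 0.886 at 0 h, then 7.14 and 8.17) and the retinol receptor Stra6 (0 in both libraries at 0 h, then 1.95 and 1.56). Foxa2, a transcription factor, rose at 2i 84 h, from 0.794 and 1.1 to 6.31 and 4.83. Without Lrp2 the 15 others summed to between 7.077 and 7.53 at 2iL 0 h, between 12.34 and 18.28 at 96 h, between 8.34 and 9.89 at 2i 0 h and between 18.31 and 23.06 at 84 h. The highest value in any library was 1.736 CPM for Gata6, 1.547 for Gata4, 2.94 for Sox17, 1.547 for Sox7 and 0.8162 for Afp, and Ttr was at 0 throughout. The 10 trophoblast markers summed to 26.6 and 21.7 at 2iL 0 h and 74 and 70.8 at 96 h, and to 40.5 and 54.4 at 2i 0 h and 80.8 and 65.4 at 84 h. Of 6 that were tested, 3 were higher and 1 lower at 2iL 96 h, and 2 higher and 1 lower at 2i 84 h. Over all genes tested, 19.5% were higher and 20.1% lower at 2iL 96 h, and 16.6% and 16.6% at 2i 84 h. The fibroblast and mesenchymal markers without Vim summed to between 46.11 and 50.96 at 2iL 96 h and between 26.28 and 30.94 at 2i 84 h. The share of uniquely mapped reads outside genes was also higher at the last times, at 53.98% and 50.44% at 2iL 96 h against 47.05% and 41.18% at 0 h, and at 53.85% and 55.57% at 2i 84 h against 30.85% and 46.43% at 0 h. The part of these markers and of this share in the late levels of the matrix genes was not tested.

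Fibronectin fell in both media. Fn1 (chr1:71585520-71653200), a ligand of several integrins, measured 582 and 481 at 0 h, 194 and 263 at 24 h, 247 at 36 h and 264 and 219 at 48 h in the 2iL course. Fn1 then measured 159 and 116 at 60 h, 75.5 and 69.3 at 72 h, 67.2 and 43.6 at 84 h and 79.9 and 73.5 at 96 h. The 2i libraries measured 414 and 332 at 0 h, 281 and 292 at 12 h, 114 and 138 at 24 h and 98.1 and 90.5 at 36 h. Fn1 then measured 61.4 and 54.9 at 48 h, 59.4 and 46.5 at 60 h, 66.9 and 61 at 72 h and 87.1 and 57.4 at 84 h. Every library from 24 h on was below the 0 h libraries of its course. The change at 24 h was -1.22 ± 0.20 (SE, adjusted p = 6.83e-05) in 2iL and -1.56 ± 0.20 (SE, adjusted p = 7.31e-07) in 2i, and at 72 h it was -2.87 ± 0.21 (SE, adjusted p = 5.21e-12) and -2.54 ± 0.22 (SE, adjusted p = 1.67e-10). At 48 h the 2iL libraries (264 and 219) stood about where they had at 24 h, while the 2i libraries were at 61.4 and 54.9.

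Sparc (chr11:55394500-55423183), the collagen-binding glycoprotein, was called lower at 60 and 72 h in 2iL and higher at 12, 72 and 84 h in 2i. In 2iL it measured 609.9 and 669.7 at 0 h, 311 and 308 at 72 h (log2 fold change -1.05 ± 0.19, adjusted p = 5.04e-05) and 941 and 671 at 96 h. In 2i it measured 313 and 407 at 0 h, 677 and 821 at 12 h (log2 fold change 1.06 ± 0.19, adjusted p = 0.000237), 291 and 273 at 36 h and 677 and 609.8 at 84 h (log2 fold change 0.84 ± 0.19, adjusted p = 0.000726). At 72 h the courses stood on opposite sides of their starts, although the 2i call at that time (log2 fold change 0.68 ± 0.19, adjusted p = 0.00604) had an adjusted p of 0.134 without library 1 of 2i 0 h. Agrn, the proteoglycan agrin, fell from 141 and 123 to 64.7 and 69.4 by 24 h in 2i (log2 fold change -0.97 ± 0.21, adjusted p = 0.00129). It went from 139.9 and 139 to 75.1 and 68.2 by 60 h in 2iL (log2 fold change -0.96 ± 0.21, adjusted p = 0.00084). Later Agrn measured 112 and 96.7 at 2i 72 h, 103 and 67 at 2i 84 h and 96.1 and 109 at 2iL 96 h. Hspg2 fell in 2iL from 34.6 and 24.8 to 5.6 and 6.41 at 48 h (log2 fold change -2.30 ± 0.42, adjusted p = 0.000109). By 2iL 96 h it measured 27.9 and 15.9. In 2i Hspg2 measured 9.53 and 7.14 at 0 h and 22.1 and 18.2 at 84 h, and its libraries at 12 h disagreed, at 8.92 and 32.3.

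**Figure D2:**
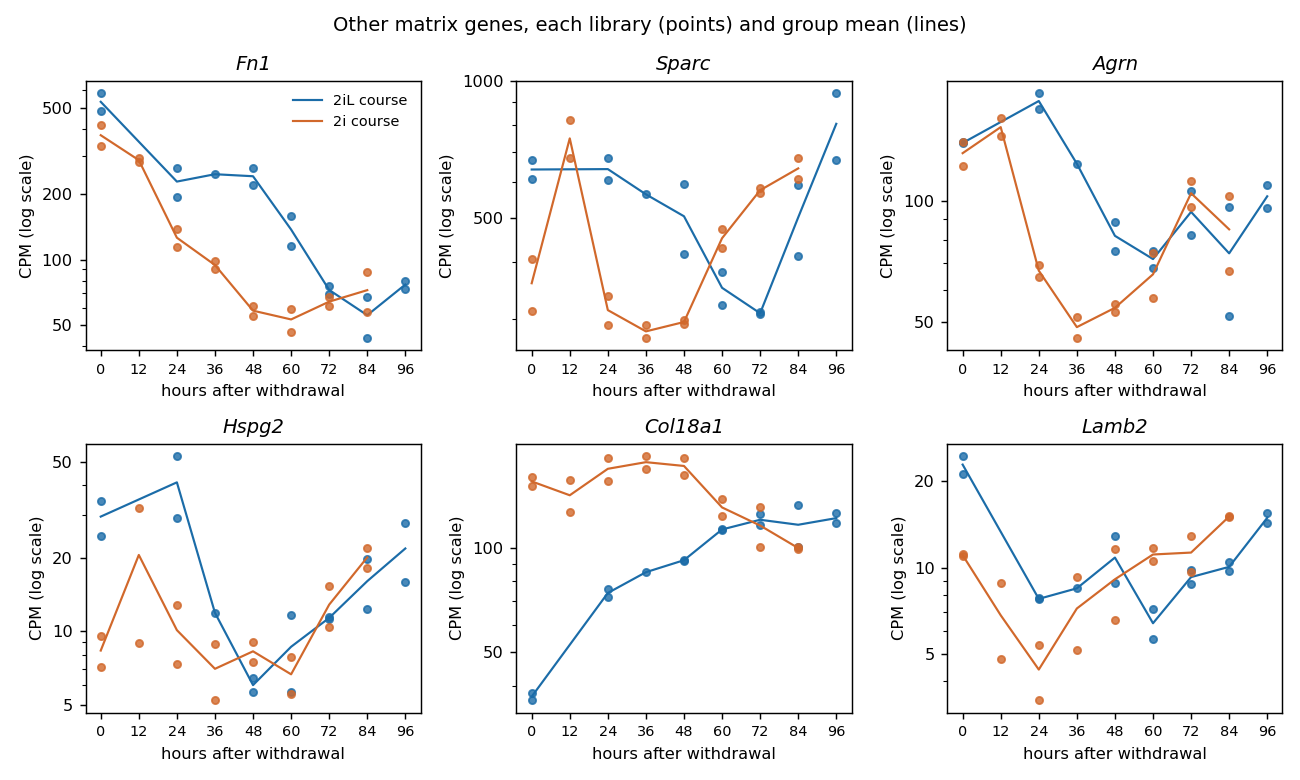
Levels of 6 further matrix genes in CPM (log scale) against hours after withdrawal, drawn as in the plot of basement membrane genes. Fn1 falls in both courses, Col18a1 starts lower in the 2iL course and rises toward the 2i level, and Sparc at 72 h is lower than its start in 2iL and higher in 2i.

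For Col18a1 the gap between the media narrowed. It measured 36.2 and 38.1 at 0 h, 75.8 and 72.3 at 24 h, 85 at 36 h and 92.3 and 91.8 at 48 h in the 2iL course. Col18a1 then measured 113 and 113 at 60 h, 125 and 116 at 72 h, 133 and 100.2 at 84 h and 118 and 126 at 96 h. It rose by 1.00 ± 0.19 (SE, adjusted p = 0.000479) at 24 h and 1.70 ± 0.18 (SE, adjusted p = 5.35e-09) at 72 h. In the 2i course it measured 151 and 160.4 at 0 h, 157 and 126 at 12 h, 156 and 182 at 24 h and 184 and 169 at 36 h. Col18a1 then measured 182 and 162 at 48 h, 138 and 124 at 60 h, 131 and 100.5 at 72 h and 100.4 and 99.2 at 84 h, and at 84 h it was lower than at 0 h (log2 fold change -0.64 ± 0.17, adjusted p = 0.00319). By 84 h the courses overlapped, with 133 and 100.2 in 2iL and 100.4 and 99.2 in 2i.

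Type I collagen was low at the start of both courses. Col1a1 and Col1a2, the chains of type I collagen, measured at most 2.2 CPM at 0 h in any library and at 2i 84 h they measured 6.95 and 13.9 (Col1a1) and 5.05 and 4.29 (Col1a2). The change of Col1a1 at 84 h was 4.32 ± 0.96 (SE, adjusted p = 0.000857), or 7.45 without the 4 libraries highest in cartilage genes, 3.20 without library 1 of 2i 0 h and 7.39 without library 2 of 2i 0 h. With 2 counts over both 0 h libraries the ratio of 23.3 has a counting interval of 6.0 to 199. The adjusted p of Col1a2 at that time (2.22, adjusted p = 0.0422) was 0.0816 with no filter on low counts, 0.106 with DESeq2, 0.413 without library 1 of 2i 0 h, 0.131 without library 1 of 2i 84 h and 0.0947 without library 2 of 2i 84 h. Col5a1, a regulator of fibril size, rose from 2.78 and 4.4 to 14.5 and 12.3 (log2 fold change 1.92 ± 0.44, adjusted p = 0.000974). Col7a1, the anchoring fibril collagen, measured 18.8 and 5.83 at 2iL 96 h against 4.16 and 3.54 at 0 h (log2 fold change 1.57 ± 0.57, adjusted p = 0.0294). Its adjusted p was 0.49 without the 4 libraries that stood apart, 0.48 without the 4 libraries highest in cartilage genes, 0.0936 without library 1 of 2iL 0 h, 0.128 without library 2 of 2iL 0 h and 0.538 without library 1 of 2iL 96 h.

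The cartilage-type collagens, Col2a1 and Col11a1 of the fibrils and Col9a1, Col9a2 and Col9a3 on their surface, split the replicates of several groups. Col11a1 measured 18.3 and 114 at 0 h, 61.1 and 167 at 12 h, 6.37 and 8.59 at 24 h and 67 and 36.8 at 36 h in the 2i course. Col11a1 then measured 40.1 and 20.6 at 48 h, 23 and 22.5 at 60 h, 58.3 and 73.7 at 72 h and 87.8 and 124 at 84 h. At 0 h library 2 was far above library 1, and at 12 h again. Col9a1 measured 0.794 and 17.6 at 2i 0 h, 9.61 and 41.2 at 12 h and 0 and 0.716 at 24 h, and Col9a3 measured 1.59 and 19.2, 11.7 and 30.4 and 0.49 and 3.22. The 3' end of Col9a3 is overlapped on the other strand by Tcfl5. A list of 13 chondrocyte markers, drawn up after these values were seen, moved with them. Its summed level was 7.943 and 74.18 CPM in the 2i 0 h libraries, 37.74 and 150.9 at 12 h, 57.15 and 30.91 at 36 h, and 69.49 and 28.01 at 2iL 96 h; Mgp reached 37.24 CPM, Acan 26.46 and Cnmd 18.62. Deviations from the group mean were also correlated with those of the summed 12 markers other than Sox9, on the log2(CPM + 1) scale. Over 30 libraries r was 0.94 for Col9a1, 0.92 for Col11a1, 0.92 for Col9a3, 0.65 for Col2a1 and 0.62 for Col9a2. The 2 libraries of a pair deviate by equal and opposite amounts, so each pair enters as mirrored points. These correlations describe libraries that share the same deviations, and the part of the markers in the results was not tested. The fall of Col11a1 at 2i 24 h (log2 fold change -3.07 ± 0.70, adjusted p = 0.00203) had an adjusted p of 0.168 without the 4 libraries highest in cartilage genes and 0.345 without library 2 of 2i 0 h, and its value was -3.93 without library 1 of 2i 0 h. Col2a1 measured 1.99 and 11 at 2i 0 h and 23.4 and 32.2 at 84 h (log2 fold change 2.21 ± 0.55, adjusted p = 0.00236), where the chondrocyte markers summed to 18.94 and 49.35. The adjusted p of that change was 0.115 without library 1 of 2i 0 h, and its value was 3.81 without the 4 libraries highest in cartilage genes and 3.77 without library 2 of 2i 0 h. Col27a1, a fibrillar collagen of developing cartilage, measured 3.33 and 1.77 at 2iL 0 h and 10.4 and 6.61 at 96 h (log2 fold change 1.65 ± 0.53, adjusted p = 0.0128). Here the adjusted p was 0.0647 without the 4 libraries that stood apart, 0.0664 without the 4 libraries highest in cartilage genes, 0.119 without library 2 of 2iL 0 h and 0.097 without library 1 of 2iL 96 h.

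**Figure D3:**
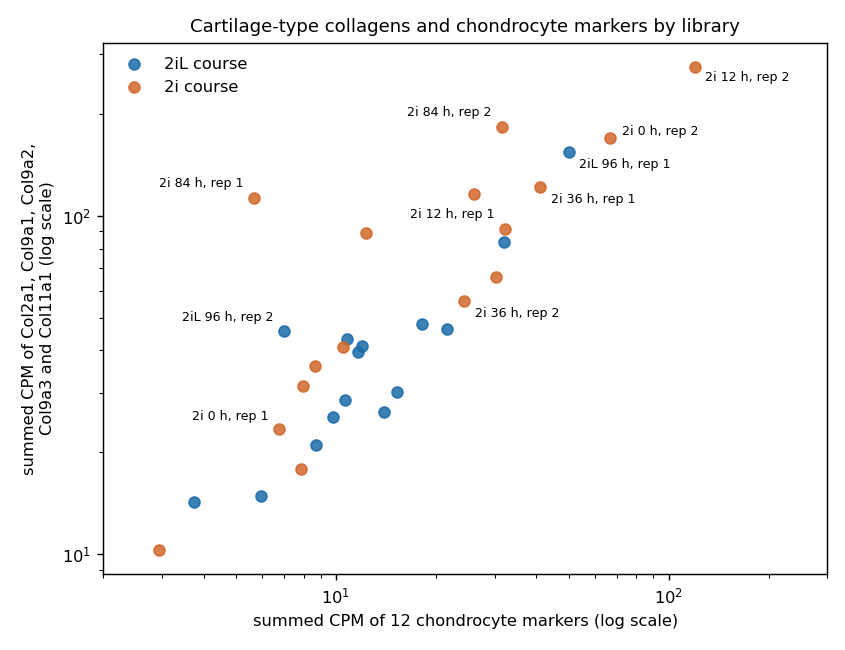
Summed level of Col2a1, Col9a1, Col9a2, Col9a3 and Col11a1 against the summed level of 12 chondrocyte markers (the list without Sox9), both in CPM on log scales; each point is 1 of 31 libraries, blue for the 2iL course and orange for the 2i course. Replicates of 2i 0 h lie at 23.43 and 169.2 CPM of these collagens, and library 2 of 2i 12 h is highest on both axes.

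Of the integrin receptors, 5 of 7 tested alpha chains changed in each course, and 2 of 5 beta chains changed in 2i and 4 in 2iL, where 52.3% and 56.5% of all genes did. The calls of Itga1, Itga3, Itga6, Itgb1 and Itgb8 in 2i, and of Itga1, Itga3, Itga6, Itga9 and Itgb1 in 2iL, passed in every alternative tried. Itga3 (chr11:95044474-95076801), which pairs with Itgb1 to bind laminins, measured 1.99 and 3.85 at 0 h, 43.2 and 51.9 at 12 h, 31.4 and 39.4 at 24 h and 56 and 25.8 at 36 h in the 2i course. Itga3 then measured 29.7 and 23.9 at 48 h, 17.4 and 22 at 60 h, 8.6 and 13.4 at 72 h and 8.21 and 9.65 at 84 h. In the 2iL course it measured 2.08 and 1.33 at 0 h, 11.6 and 8.79 at 24 h, 8.08 at 36 h and 23.4 and 16.4 at 48 h. Itga3 then measured 33.8 and 21 at 60 h, 31.8 and 21.1 at 72 h, 23.4 and 37.2 at 84 h and 33.1 and 23.3 at 96 h. Within 12 h of leaving 2i it rose by 4.05 ± 0.45 (SE, adjusted p = 1.29e-07), and both 12 h libraries were above both 0 h libraries and above every library from 48 h on. From there it came down, to 1.94 ± 0.55 (SE, adjusted p = 0.00806) at 72 h, whereas in 2iL it climbed more slowly and stayed up, at 3.91 ± 0.49 (SE, adjusted p = 1.79e-07) at 72 h. The 2i 72 h call had an adjusted p of 0.134 without library 1 of 2i 0 h and 0.0946 without library 2 of 2i 72 h. Itga6 (chr2:71745616-71858416), another laminin receptor chain and a stem cell surface marker, measured 106 and 137 at 2i 0 h, 273 and 289 at 48 h (log2 fold change 1.21 ± 0.18, adjusted p = 3.78e-06) and 166 and 127 at 84 h. In 2iL it measured 154 and 139 at 0 h, 298 and 292 at 72 h (log2 fold change 1.01 ± 0.17, adjusted p = 2.79e-05) and 194 and 194 at 96 h. The libraries at 48 h in 2i and at 72 h in 2iL were above those of both ends of their course. Itga1 rose in 2iL from 2.91 and 1.33 to 12 and 14.5 at 84 h (log2 fold change 2.59 ± 0.49, adjusted p = 0.000102). Leaving 2i, it fell from 16.7 and 21.4 to 2.94 and 3.94 at 24 h (log2 fold change -2.41 ± 0.42, adjusted p = 8.39e-05) and stood at 14.3 and 16.5 at 60 h.

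Itgb1 (chr8:128685654-128733200), the partner of most of these alpha chains, rose late, from 65.4 and 66.9 to 157 and 166 at 2iL 96 h (log2 fold change 1.29 ± 0.18, adjusted p = 8.80e-07). The 2i libraries of Itgb1 went from 70.3 and 78.6 to 117 and 165 at 2i 84 h (log2 fold change 0.93 ± 0.18, adjusted p = 0.000162). Itgav, the alpha chain of receptors for fibronectin and vitronectin, fell in 2i from 33 and 42.3 to 14.1 and 13.4 at 72 h (log2 fold change -1.44 ± 0.35, adjusted p = 0.00246). Itgb5, its partner at the vitronectin receptor, measured 12.9 and 9.3 at 2iL 0 h and 6.01 and 3.08 at 60 h, and its change at some time of the 2iL course (adjusted p = 0.0187) had an adjusted p of 0.0509 with DESeq2 and 0.0535 without library 2 of 2iL 60 h. Itgb8, which with Itgav releases TGF-beta from its latent form, reached 17 and 12.3 at 2i 84 h from 1.59 and 0.549 at 0 h (log2 fold change 3.61 ± 0.78, adjusted p = 0.000544, or 4.59 without library 1 of 2i 0 h). Over the 16 group means the pairs were loosely tied, with r = 0.41 for Itga3 and Itgb1, 0.11 for Itga6 and Itgb1 and 0.57 for Itgav and Itgb5.

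The remaining tested genes were low, with a highest value in any library of 11.9 CPM. Col22a1, a collagen of tissue junctions, rose at 2iL 96 h (log2 fold change 3.57 ± 0.99, adjusted p = 0.00501) from 2 counts over both 0 h libraries to 24, a ratio of 13.6 with a counting interval of 3.38 to 119. Its joint test had an adjusted p of 0.0776 without library 2 of 2iL 96 h. Itga9, a receptor chain for tenascin, was called at 2iL 96 h (log2 fold change 3.30 ± 1.02, adjusted p = 0.0102), with an adjusted p of 0.127 without library 1 of 2iL 0 h and 0.0555 without library 2 of 2iL 96 h. Itga4, a fibronectin and VCAM1 receptor chain, measured 8.84 and 2.68 at 2i 84 h and 0.397 and 0.549 at 0 h (log2 fold change 3.44 ± 1.13, adjusted p = 0.0193). That adjusted p was 0.0625 without the 4 libraries highest in cartilage genes, 0.134 without library 1 of 2i 0 h and 0.0624 without library 2 of 2i 0 h. The 3' end of Itga4 is overlapped on the other strand by Cerkl. Col9a2 measured 0.416 and 0.886 at 2iL 0 h and 7.79 and 2.72 at 96 h (log2 fold change 2.80 ± 0.98, adjusted p = 0.023), a ratio of 7.18 with a counting interval of 2.11 to 37.9. Its adjusted p was 0.166 without the 4 libraries that stood apart, 0.159 without the 4 libraries highest in cartilage genes, 0.142 without library 1 of 2iL 0 h, 0.063 without library 2 of 2iL 0 h and 0.211 without library 1 of 2iL 96 h. Col23a1, a membrane collagen, passed the joint test in 2i in every alternative, with 1.19 and 2.2 at 0 h and 6.95 and 6.44 at 84 h (log2 fold change 1.99 ± 0.73, adjusted p = 0.0338). That adjusted p was 0.0528 to 0.233 leaving out any 1 of the 4 libraries and 0.0565 with no filter on low counts, 0.0859 with DESeq2 and 0.0525 without the 4 libraries highest in cartilage genes. Lama3, a laminin chain of epithelia, passed the joint test in 2iL in every alternative, with 1.67 and 1.33 at 0 h, 3.46 at 36 h and 0 in both libraries of 72 h (adjusted p = 0.0393). For the 72 h change it was 0.0709 to 0.169 leaving out any 1 of the 4 libraries and 0.0932 with no filter on low counts, 0.0971 with DESeq2 and 0.0692 with only the libraries compared fitted. Itgb7, a beta chain of leukocyte integrins, measured 2.08 and 2.21 at 2iL 0 h and 0.649 and 0 at 96 h (adjusted p = 0.0468), where 1 count remained. Its adjusted p was 0.0548 with RLE size factors, 0.12 with no filter on low counts, 0.163 with DESeq2, 0.0619 with only the libraries compared fitted, 0.0999 without library 1 of 2iL 0 h, 0.115 without library 2 of 2iL 0 h and 0.353 without library 2 of 2iL 96 h. Of the others, Col25a1 and Itga11 passed the joint test of 1 course, but not in every alternative. Col13a1, Col26a1, Col8a1 and Itgb4 passed in neither course. Each of these genes had at least 1 library under the level of 3 counts.

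**Figure D4:**
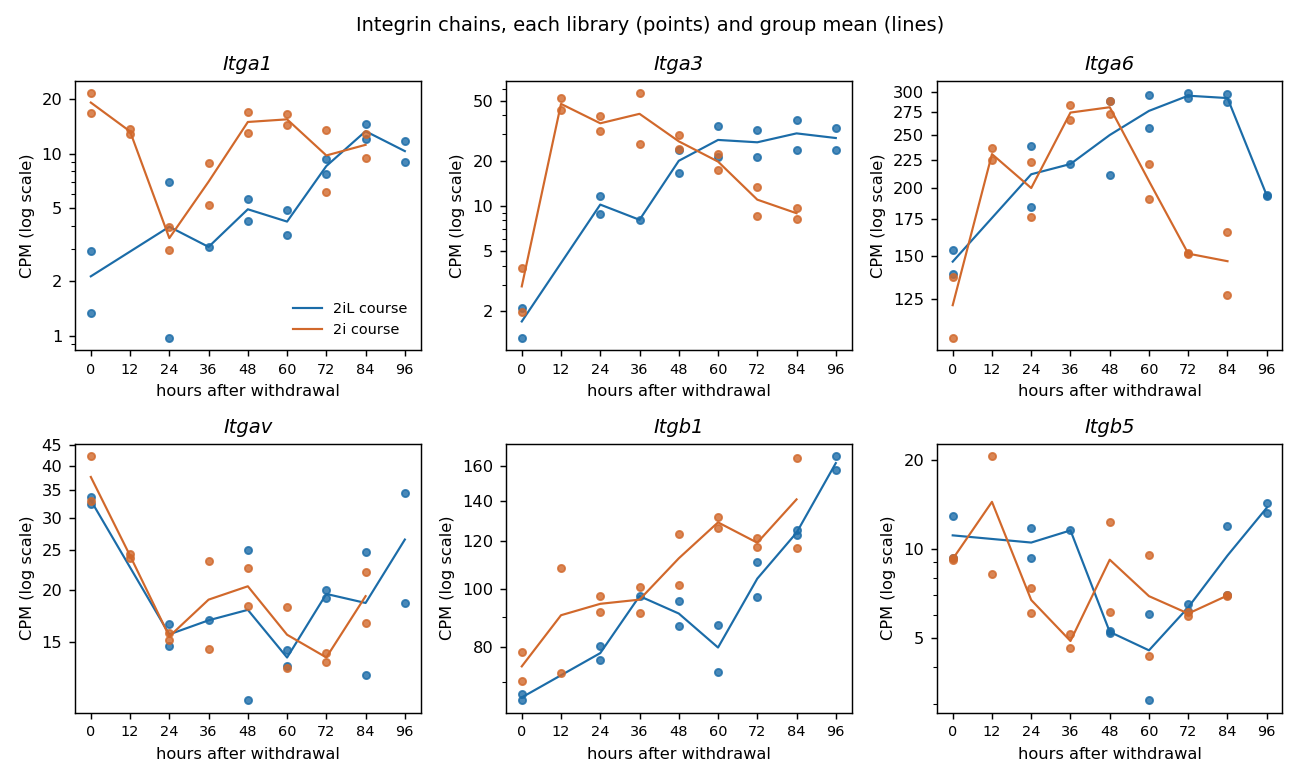
Levels of 6 integrin chains in CPM (log scale) against hours after withdrawal, drawn as in the plot of basement membrane genes. Itga3 is highest at 12 to 36 h in the 2i course and rises more slowly in the 2iL course, Itga6 is highest in mid-course, and Itgb1 has its highest mean at the last time of each course.

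Counts at single times are read against all genes. At 2i 12 h, 6 of 44 (13.6%) were higher, against 5.43% of all genes tested, and 2 (4.55%) lower, against 5.37%. At 2i 24 h, 2 (4.55%) were higher, against 8.47%, and 12 (27.3%) lower, against 8.86%, and the median log2 change of the 44 was -0.95 against -0.02 for all genes tested. At 2i 72 h, 10 (22.7%) were higher, against 14.1%, and 5 (11.4%) lower, against 14.2%. At 2i 84 h, 15 (34.1%) were higher, against 16.6%, and 7 (15.9%) lower, against 16.6%, with a median of 0.65. At 2iL 24 h, 5 (11.4%) were higher, against 5.65%, and 4 (9.09%) lower, against 5.92%. At 2iL 48 h, 4 (9.09%) were higher, against 14.7%, and 10 (22.7%) lower, against 14.4%. At 2iL 60 h, 5 (11.4%) were higher, against 13.8%, and 12 (27.3%) lower, against 13.9%, with a median of -0.66. At 2iL 72 h, 8 (18.2%) were higher, against 14.6%, and 11 (25%) lower, against 14.1%, with a median of -0.17 against 0.02. At 2iL 96 h, 15 (34.1%) were higher, against 19.5%, and 7 (15.9%) lower, against 20.1%, with a median of 0.57 against -0.0057. Among these times, more were called lower than higher at 2i 24 h and at 2iL 48, 60 and 72 h, and more higher than lower at all the others. At 2i 36 h, 3 were higher (8.72% of all genes) and 6 lower (8.79%). The counts were 5 (10.2%) and 5 (9.99%) at 2i 48 h, and 7 (12.4%) and 5 (11.7%) at 2i 60 h. They were 3 (5.56%) and 5 (5.22%) at 2iL 36 h, and 11 (17.6%) and 8 (17.2%) at 2iL 84 h. The libraries at 2i 12 h also differed in makeup, with 35.52% and 43.53% of counts in the 10 highest genes against 22.26% and 24.65% at 0 h, and those at 2iL 24 h had 30.56% and 30.54% against 17.12% and 18.85%. The part of this in the counts was not tested. Single libraries moved some of these counts by more than 1.5 times. Without library 1 of 2i 0 h there were 1 lower gene at 12 h, 1 higher at 24 h, 2 higher at 72 h, and 8 higher and 4 lower at 84 h. Without library 1 of 2iL 0 h there were 2 higher and 2 lower at 24 h, 7 lower at 72 h and 9 higher at 96 h, and without library 2 of 2iL 0 h there were 3 higher and 2 lower at 24 h. Leaving out a library of the time itself gave 1 lower at 2i 12 h (library 1), 1 higher at 2i 24 h (library 2), 6 higher at 2i 72 h (library 1), 3 lower at 2i 84 h (library 2), 1 higher and 2 lower at 2iL 24 h (library 1) and 7 lower at 2iL 72 h (library 2).

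**Figure D5:**
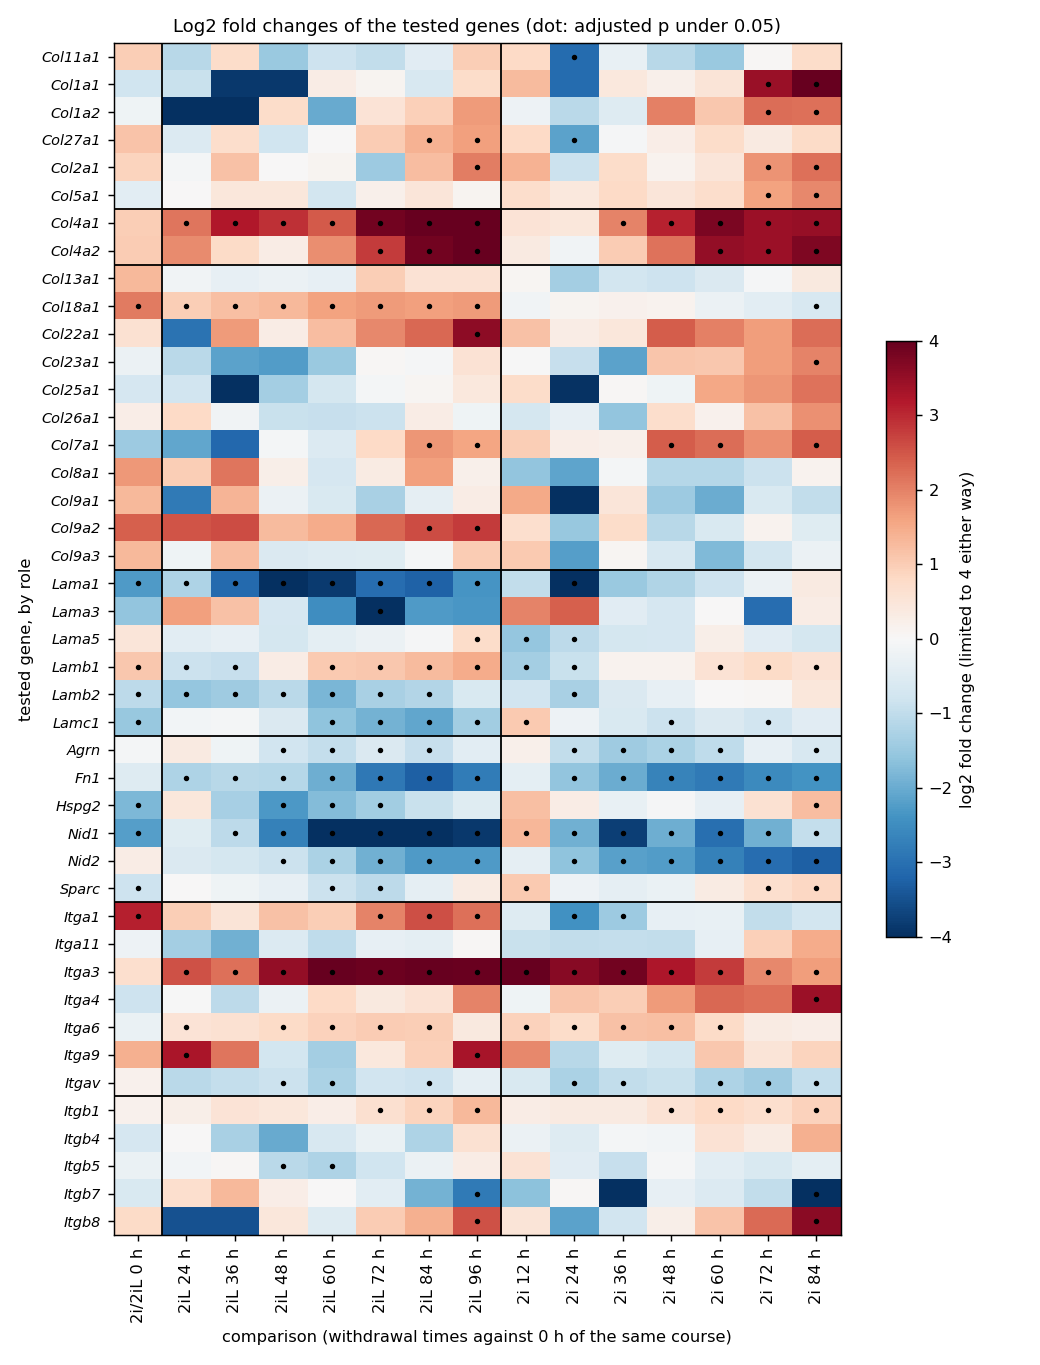
Log2 fold changes of 43 of the 44 tested genes (rows, by role) for 2i against 2iL at 0 h (first column) and for every later time against the 0 h group of the same course, red higher and blue lower, limited to 4 either way; a dot marks an adjusted p under 0.05. Col4a1 and Itga3 are higher and Fn1, Nid1 and Nid2 lower across most times of both courses.

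The courses differed in 16 of the 44 tested genes when their changes over the 6 shared times were compared in 1 test, where 22.5% of all genes tested differed. Each change is measured from the course's own 0 h group, and those groups differed for the genes named above. The smallest adjusted p belonged to Nid1 (4.36e-10), followed by Col18a1 (6.63e-08) and Sparc (6.60e-07). At 24 h the change in 2iL was more upward than that in 2i for 4 genes (1.79% of all genes), Agrn, Itga1, Nid1 and Col18a1. It was more downward for 0 genes by edgeR (1.29% of all genes), as it was with DESeq2 and at an unadjusted p under 0.05. None of these 4 calls passed in every alternative. The adjusted p of Agrn (1.32, adjusted p = 0.00857) was 0.0645 without library 1 of 2i 0 h, and that of Itga1 (3.38, adjusted p = 0.016) was 0.0511 without the 4 libraries highest in cartilage genes, 0.0842 without library 2 of 2iL 0 h and 0.785 without library 1 of 2iL 24 h. That of Nid1 (1.43, adjusted p = 0.0289) was 0.0535 to 0.246 leaving out any 1 of the 8 libraries other than library 2 of 2i 0 h, and 0.0777 with no filter on low counts and 0.12 with DESeq2. That of Col18a1 (0.87, adjusted p = 0.0466) was 0.0859 to 0.186 leaving out any 1 of the 8 libraries and 0.179 with no filter on low counts, 0.0694 with DESeq2, 0.051 with all 32 libraries and 0.162 without the 4 libraries highest in cartilage genes. The count of such genes was 1 to 3 with 1 library left out. At 72 h, 2 genes had changed more upward in 2iL (5.56% of all genes), Col18a1 by 2.11 ± 0.24 (SE, adjusted p = 1.96e-07) and Itga1 by 2.96 ± 0.65 (SE, adjusted p = 0.00239), and 4 more downward (4.24%). The latter were Nid1 (log2 fold change -3.60 ± 0.55, adjusted p = 2.41e-05), Sparc (log2 fold change -1.73 ± 0.26, adjusted p = 2.43e-05), Lama1 (log2 fold change -2.82 ± 0.71, adjusted p = 0.00853) and Hspg2 (log2 fold change -2.0 ± 0.63, adjusted p = 0.0405). The adjusted p of Lama1 was 0.0933 without library 1 of 2i 72 h. For Hspg2 it was 0.153 without library 1 of 2iL 0 h, 0.0793 without library 1 of 2iL 72 h, 0.0954 without library 2 of 2iL 72 h, 0.0733 without library 1 of 2i 0 h, 0.111 without library 2 of 2i 0 h and 0.232 without library 1 of 2i 72 h, which brought the lower count to 2 without library 1 of 2i 72 h.

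The machinery around the matrix was followed with 5 lists, given with the share of tested genes higher and lower and the median log2 change. Over all genes tested these were 14.1%, 14.2% and -0.0057 at 2i 72 h and 14.6%, 14.1% and 0.02 at 2iL 72 h. Of the list of collagen processing genes, 19 of 29 were tested; at 72 h 4 were higher and 3 lower in 2i (21.1% and 15.8%, median -0.01), and 3 and 5 in 2iL (15.8% and 26.3%, median -0.36). Serpinh1, the collagen chaperone, rose by 1.60 ± 0.31 (SE, adjusted p = 0.00017) at 2i 72 h. Pcolce, an enhancer of procollagen cleavage, fell by 3.35 ± 0.44 (SE, adjusted p = 5.05e-07) at 2iL 72 h and was lower in 2i than in 2iL at 0 h (log2 fold change -4.18 ± 0.49, adjusted p = 4.04e-07). Colgalt1, which adds galactose to collagen, fell by 1.31 ± 0.17 (SE, adjusted p = 4.38e-07) at 2iL 72 h. These counts depended on the setting. At 2i 72 h they were 1 and 1 without library 1 of 2i 0 h and also without library 1 of 2i 72 h, with 1 lower in DESeq2. At 2iL 72 h they were 0 and 3 without library 2 of 2iL 0 h and also without library 1 of 2iL 72 h, 1 and 3 with DESeq2, and the lower count was 8 without the 4 libraries that stood apart and 3 with only the libraries compared fitted. Of the integrin adhesion complex, 28 of 30 were tested, with 10 higher and 3 lower at 2i 72 h (35.7% and 10.7%, median 0.33) and 7 and 7 at 2iL 72 h (25% and 25%, median -0.07). Zyx, zyxin of focal adhesions and stress fibres, rose by 3.80 ± 0.41 (SE, adjusted p = 1.72e-08) in 2i, or 4.50 without the 4 libraries highest in cartilage genes and 4.47 without library 2 of 2i 0 h. The rise of Zyx in 2iL was 6.83 ± 0.60 (SE, adjusted p = 1.98e-10), or 5.97 without library 1 of 2iL 0 h and 8.96 without library 2 of 2iL 0 h. Pdlim7, an actin-associated adaptor, rose by 2.26 ± 0.35 (SE, adjusted p = 7.22e-06) in 2i and 2.34 ± 0.38 (SE, adjusted p = 1.45e-05) in 2iL. Tns3, a tensin that binds integrin tails, fell by 1.41 ± 0.33 (SE, adjusted p = 0.00126) in 2iL. The adhesion counts changed as follows: the higher count at 2i 72 h was 6 without library 1 of 2i 0 h; the lower count at 2i 72 h was 1 with DESeq2, 0 without library 1 of 2i 0 h and 0 without library 2 of 2i 72 h.

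Of the matrix proteases and their inhibitors, 18 of 24 were tested, with 7 higher and 4 lower at 2i 72 h (38.9% and 22.2%, median 0.75) and 5 and 5 at 2iL 72 h (27.8% and 27.8%, median 0.30); the lower count at 2i 72 h was 2 with DESeq2, 2 without library 1 of 2i 0 h and 2 without library 1 of 2i 72 h. Serpine2, an inhibitor of thrombin and plasminogen activators, rose by 2.04 ± 0.20 (SE, adjusted p = 2.95e-09) in 2i and 2.01 ± 0.22 (SE, adjusted p = 1.08e-08) in 2iL at 72 h. Timp2, an inhibitor of metalloproteases, rose by 3.55 ± 0.39 (SE, adjusted p = 2.34e-08) in 2i and 3.64 ± 0.48 (SE, adjusted p = 4.55e-07) in 2iL. The membrane protease Adam19 fell by 3.27 ± 0.36 (SE, adjusted p = 2.72e-08) in 2i, where its value was -2.63 without library 1 of 2i 72 h and -4.17 without library 2 of 2i 72 h. In 2iL Adam19 fell by 2.69 ± 0.31 (SE, adjusted p = 3.66e-08). Of 40 other matrix proteins, 24 were tested and 11 were higher at 2i 72 h (45.8%, median 1.60), and 8 were higher and 2 lower at 2iL 72 h (33.3% and 8.33%, median 1.07). Thbs3, a thrombospondin, rose by 2.59 ± 0.32 (SE, adjusted p = 1.90e-07) in 2i and 2.93 ± 0.36 (SE, adjusted p = 1.03e-07) in 2iL. Ntn1, the guidance protein netrin 1, fell by 2.6 ± 0.44 (SE, adjusted p = 2.12e-05) in 2iL. Of 21 other matrix receptors, 19 were tested, with 7 higher and 5 lower at 2i 72 h (36.8% and 26.3%, median 0.58) and 5 and 3 at 2iL 72 h (26.3% and 15.8%, median -0.16); the lower count at 2i 72 h was 2 without library 1 of 2i 0 h and 3 without library 1 of 2i 72 h. Gpc1, a glypican, rose by 1.91 ± 0.26 (SE, adjusted p = 8.21e-07) in 2i and 2.23 ± 0.28 (SE, adjusted p = 1.93e-07) in 2iL. Sdc4, a syndecan of focal adhesions, fell by 1.34 ± 0.18 (SE, adjusted p = 7.36e-07) in 2i. Lgals1, a galectin that binds laminin and integrins, was higher in 2i at 0 h (log2 fold change 2.10 ± 0.19, adjusted p = 2.12e-09). It fell by 3.34 ± 0.22 (SE, adjusted p = 4.86e-12) within 12 h of leaving 2i. In 2iL Lgals1 was lower at 24 h (log2 fold change -0.94, adjusted p = 0.00656). This call was lost without library 2 of 2iL 0 h (log2 fold change -0.84) and without library 1 of 2iL 24 h (-0.93). At 2iL 72 h Lgals1 was higher than at 0 h by 1.12 ± 0.19 (SE, adjusted p = 2.53e-05).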

How the data were processed

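Poly(A) RNA of 32 libraries in 16 groups was measured by 3' digital counting. Per the submitters' processing notes, bcl2fastq, STAR 2.6.0a and HTSeq were used with the mouse build mm10. The values used here are the raw read counts per gene that the authors deposited, with no normalization, and the strand setting is not given in the sources used here. Rows that name no gene were left out; 23.81 to 55.57% of uniquely mapped reads lay outside genes. Counting precision is limited by depth, with 3 counts equal to 0.8725 to 2.672 CPM.

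The analysis used R 4.3.3 and edgeR 4.0.16 (limma 3.58.1) with TMM scaling, filterByExpr on the groups and quasi-likelihood tests over 31 libraries in 1 model with 15 residual degrees of freedom, 12556 genes and 24 comparisons. library 2 of 2iL 36 h was dropped. p-values were Benjamini-Hochberg adjusted within each comparison over all genes tested, with a threshold of 0.05. In counts simulated for 12556 genes in the 2i 12 h comparison, this fit called 44% of 100 genes changed by a log2 fold of 1, 98% of 100 changed by 2 and 8 unchanged genes. The changed genes were drawn only from the better counted ones. Every gene was given the common dispersion (0.0213), and otherwise the same mean in all groups. Many genes of the set had fewer counts, and some had a larger spread between replicates, so these rates do not carry over to them. Alternatives were RLE scaling, DESeq2 1.42.0, no filter, all 32 libraries, a replicate block, only the libraries compared, leaving out each library in turn (except library 1 of 2iL 36 h), and leaving out 4 libraries that stood apart. Each library was left out only for comparisons that use its group. Library 1 of 2iL 36 h, the only one fitted at that point, was kept in every alternative, so its weight in the joint tests was not tested. Leaving out the 4 libraries highest in cartilage genes (library 2 of 2i 0 h, library 2 of 2i 12 h, library 1 of 2i 36 h and library 1 of 2iL 96 h) was chosen after seeing the data. They were the 4 highest in the summed chondrocyte markers, not in the cartilage-type collagens. Library 2 of 2i 84 h had 183.4 CPM of those collagens, against 121.8 in library 1 of 2i 36 h, and was kept. For 2i 84 h against 0 h this setting therefore left out only library 2 of 2i 0 h. Where leaving out a library left a group with 1, its spread was taken from the other groups.

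Per role class, values in every library of a course were printed for up to 3 tested genes with the smallest joint p of either course and a mean of 5 CPM or more, and other genes by counts, ranges and the fold changes of those called. For lists of other genes up to 3 were named by the same rule. The gene set and all lists were chosen with earlier results of these data known, and levels of different genes are not compared with each other. Promoter sequences are from RefSeq on GRCm38.p6, and gene positions are from GENCODE on GRCm38. No image or read data were used. The values of 1 gene of the set are not reported here, although it is included in the counts.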

Additional observations from a re-analysis of the deposited data

Results flagged for a closer look

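The change over the 6 shared times differed between the 2iL and 2i courses for 16 genes by edgeR's joint quasi-likelihood test, adjusted over all genes tested. The courses have separate 0 h groups, so each change was taken from its own start. Among basement membrane linkers, the adjusted p was 4.36e-10 for Nid1, 0.0128 for Nid2, 0.00026 for Agrn and 0.00792 for Hspg2. Among laminin chains it was 1.18e-05 for Lama1, 0.0068 for Lamb1, 0.0245 for Lamb2 and 0.000254 for Lamc1. Among collagens it was 6.63e-08 for Col18a1 and 9.76e-05 for Col4a1, and it was 6.02e-06 for Fn1 and 6.60e-07 for Sparc. Among integrin chains it was 6.17e-06 for Itga3, 0.000495 for Itga6, 0.000988 for Itga1 and 0.0387 for Itga9.

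Of the 16, 13 passed in every alternative tried. The adjusted p of Nid2 was 0.0574 without library 1 of 2iL 0 h, 0.11 without library 2 of 2iL 0 h and 0.115 without library 1 of 2i 0 h. That of Lamb2 was 0.0537 with no filter on low counts, 0.104 with DESeq2, 0.0804 without library 1 of 2iL 0 h, 0.0512 without library 2 of 2iL 60 h, 0.0719 without library 1 of 2i 0 h, 0.0618 without library 2 of 2i 0 h and 0.0506 without library 1 of 2i 60 h. That of Itga9 was 0.0512 without the 4 libraries highest in cartilage genes, 0.171 without library 1 of 2iL 24 h, 0.054 without library 2 of 2iL 24 h, 0.0602 without library 1 of 2iL 60 h, 0.0794 without library 2 of 2iL 60 h, 0.052 without library 1 of 2i 0 h, 0.111 without library 1 of 2i 24 h, 0.0586 without library 1 of 2i 36 h, 0.0536 without library 2 of 2i 36 h, 0.0536 without library 1 of 2i 48 h, 0.0508 without library 2 of 2i 48 h, 0.0743 without library 1 of 2i 60 h and 0.0558 without library 2 of 2i 60 h. At 36 h Col4a1 measured 14.2 CPM in 2iL (1 library) and 10.4 and 14 in 2i, at 60 h 8.64 and 8.21 in 2iL and 43.8 and 40.5 in 2i, and at 84 h 28.1 and 36.1 and 30.3 and 38.1. In level the courses did not overlap at 60 h, with 2i higher, and overlapped at 84 h. The 0 h levels were 1.25 and 1.77 in 2iL and 2.38 and 3.85 in 2i. Measured from these starts, the difference between the courses was not called for Col4a1 at any single shared time, 60 h included.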

How the results depend on the processing

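No call reversed under any alternative. Of 319 calls of members over all comparisons, 313 remained with RLE scaling, 271 with DESeq2, 298 with no filter, 304 without the 4 libraries that stood apart and 282 without the 4 libraries highest in cartilage genes; with all 32 libraries 308 of 312 remained, with only the libraries compared 247 of 265, and over the libraries left out in turn 2113 of 2423. The fit of only the libraries compared gives no value for course differences. The following counts moved by more than 1.5 times. At 2i 12 h the higher count, 6, was 3 without the libraries highest in cartilage genes. At 2i 84 h the lower count, 7, was 3 with DESeq2. At 2iL 24 h the higher count, 5, was 3 with DESeq2 and 3 with only the libraries compared, and the lower count, 4, was 2 with each of these and 7 without the libraries that stood apart. The course difference at 24 h had 4 genes higher, and 2 with DESeq2 and 2 without the libraries highest in cartilage genes. That at 72 h had 2 higher and 4 lower, and 4 and 7 without the libraries that stood apart. The cause of these moves was not tested.

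With 1 library left out, the counts (lowest to highest) were 3 to 4 higher and 4 to 5 lower for 2i against 2iL at 0 h, 4 to 8 and 1 to 3 at 2i 12 h, 1 to 2 and 9 to 12 at 2i 24 h, 2 to 11 and 4 to 5 at 2i 72 h, 8 to 14 and 3 to 5 at 2i 84 h, 1 to 4 and 2 to 3 at 2iL 24 h, 6 to 7 and 7 to 9 at 2iL 72 h, and 9 to 15 and 5 to 6 at 2iL 96 h. Joint tests gave 29 to 33 genes in 2i, 28 to 31 in 2iL and 14 to 17 between the courses; the course difference had 1 to 3 higher at 24 h, and 2 to 2 higher and 2 to 5 lower at 72 h.

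Replicate numbers did not pair the libraries: the correlation of replicate differences between groups ran from -0.385 to 0.422 over 105 pairs of groups (median 0.006), with 10 over 0.1. With the replicate block, 313 of 319 calls remained; the joint tests gave 32 genes in 2i, 31 in 2iL and 15 between the courses, and 3 higher and 7 lower genes at 0 h. Depth limits genes under about 2.672 CPM, the level of 3 counts in the shallowest library, where fold changes rest on few reads.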
